A study of Saccharomyces cerevisiae with 24 samples.

Results

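Gene expression was compared between budding yeast strains that lack a gene for a protein of the large ribosomal subunit and strains that lack a gene for a protein of the small subunit. The strains were taken by the gene named in their titles: 7 lacked an RPL gene (both copies of RPL7, RPL12 and RPL22 in turn, as rpl7a, rpl7b, rpl12a, rpl12b, rpl22a and rpl22b, and RPL14A, as rpl14a; 14 arrays) and 4 lacked an RPS gene (rps0a, rps0b, rps18a and rps18b, 8 arrays), so that 22 of the 24 arrays of the series entered. The remaining 2 arrays, of wild-type BY4741, were not used, and no value below says whether a gene lies above or below wild type. Each deletion strain was measured as 2 biological replicates on Affymetrix YG-S98 arrays, from 50 mL cultures in the rich medium YPD at 30 °C, harvested in early log phase. Each strain carries a single deletion, and the sources used here do not give how the deletions were made.

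The ribosome has a small subunit, which reads the mRNA, and a large subunit, which joins the amino acids. Most of their RNAs are cut from a long precursor in the nucleolus, where small nucleolar RNAs (snoRNAs) and a large set of assembly factors act. Each subunit has its own factors. In yeast most ribosomal proteins are encoded by a pair of near-identical copies (paralogs), so that a strain lacking 1 copy still grows on the other.

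The strain, as the mean of its 2 arrays, was the unit of comparison, because arrays of the same deletion are not replicates of a subunit class. Levels are given as normalised array signal, and differences as log2 of large minus small subunit deletions ± standard error (SE) over 7 against 4 strains. A difference was called at an adjusted p under 0.05 (limma, Benjamini-Hochberg over all 9275 probe sets). Strains deleted for the 2 copies of a gene were counted as independent, so that the large class stands for 4 protein families and the small class for 2. With families in place of strains, 4 against 2, limma called 0 probe sets, and the lowest adjusted p among the genes named here was 0.0524, for RDN37-1 and GPP2. RDN37-1, SNR52, MRPL31 and the DDR48 probe set with the larger difference stayed called under all other settings in which they were tested. Each signal is a mean over a culture, in which a change in some cells and a smaller change in all cells cannot be told apart.

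Of the 9275 probe sets, 325 were called (3.50%), 107 of them higher in the large subunit deletions (1.15%) and 218 lower (2.35%), while 1638 had an unadjusted p under 0.05. Of the 218, 103 encode protein, 81 are RNAs that do not, 32 have no gene name and 2 have several. The 81 were among 171 non-coding probe sets, none of which was called higher: 49 detect transfer RNAs (tRNAs), 24 snoRNAs and 4 spliceosomal RNAs, 2 the telomerase RNA, 1 the RNase P RNA and 1 a segment of the ribosomal RNA precursor. Among protein-coding genes the calls were about even, 97 of 6319 probe sets higher in the large subunit deletions (1.54%) and 103 lower (1.63%). The calls higher in the large subunit deletions included 7 of 40 stress-induced genes and the small subunit genes RPS9A and RPS22B. The calls higher in the small subunit deletions included 15 of 64 and 12 of 81 assembly factors of the small and large subunit and the polymerase I factor RRN3.

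**Figure D1:**
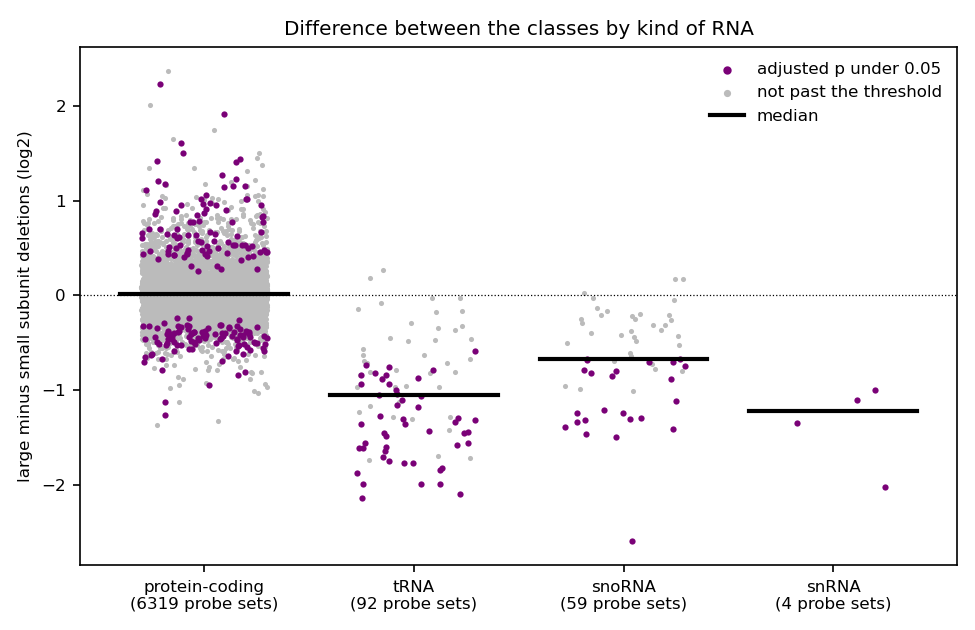
Difference between the classes for each probe set (y axis, log2, large minus small subunit deletions) by kind of RNA, with probe sets at an adjusted p under 0.05 in purple and medians as bars. The tRNA, snoRNA and snRNA medians lie at -1.05, -0.67 and -1.22, and the protein-coding median at 0.01.

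The labels were checked against the deleted genes first. Of 12 probe sets that belong to a single deleted gene, over 7 of the genes, 11 were lowest in the strain labelled as lacking that gene. The exception was 1 of 3 RPL7A probe sets, at 71.3 in rpl7a against as little as 11.1 in other strains, while the other 2 were lowest in rpl7a. The copies of RPL12 and of RPS18 are named together on their probe sets. Of 3 such RPL12 probe sets, 1 was at 3.8 in rpl12a against 7700.0 or more in the other strains and 1 at 4.6 in rpl12b against 5231 or more. The RPS18 probe set was lowest in rps18a and rps18b, at 6054 and 6206 against 7399 or more, which does not tell the copies apart. Median array signal was 38.5 to 59.0 in large and 36.3 to 61.4 in small subunit deletions, and 72.0% to 83.6% against 68.0% to 87.8% of probe sets lay above the array's background. The background was 7.37 to 14.3 in the large class and 5.55 to 30.8 in the small class, highest in rps0a replicate 2. The ratio of 3′ to 5′ signal of actin, a measure of RNA quality, was 1.68 to 2.33 against 1.84 to 2.28. Markers of mating type a were all above background in most arrays, with summed signal of 3563 to 14623 in the large class and 12166 to 15168 in the small class, and 0 of the 6 were called. Markers of the alpha mating type summed to 129 to 161 against 145 to 164 (4 markers, 0 called), and those of sporulating cells to 91.1 to 109 against 86.3 to 97.2 (7 markers, 0 called, SPS2 and DIT2 not above background on any array). Outside these lists, a probe set that names ALPHA1 at both the mating type locus and its silent copy was called at -0.53 ± 0.12 (limma adjusted p 0.0377), and its part in the results was not tested. A second such probe set was above background on 1 array of each class and was not called. The sources used here give no hybridisation or scan date, so that such a batch and the class cannot be told apart.

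The clearest difference in the data was in a probe set of RDN37-1, the gene of the long ribosomal RNA precursor on chromosome XII. Its signal ranged from 87.4 to 176 in the 7 large subunit deletions, with a median of 122, and was 700.2 in rps0a, 1438 in rps0b, 1239 in rps18a and 1087 in rps18b. All 4 small subunit deletions were far above every large subunit deletion, and the single arrays did not overlap either (75.6 to 283 against 573 to 1481). The difference was -3.22 ± 0.23, or 9.30-fold, with a limma adjusted p of 0.000407.

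The array carries 7 probe sets named RDN37-1, and the other 6 did not pass the test. The next in size, at -0.88 ± 0.28, had an adjusted p of 0.134, and the rest lay between -0.55 and 0.47. Of the 7 probe sets, 3 were above background on all 22 arrays. The sources used here do not give which segment of the precursor each one detects. A separate group of 6 probe sets annotated as ribosomal RNA had a median difference of -0.24, and 0 of them were called (limma, 1 at an unadjusted p under 0.05).

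tRNAs, which bring amino acids to the ribosome, gave the largest group of non-coding calls. Of 92 tRNA probe sets, 49 were called and all 49 were lower in the large subunit deletions, against 2.35% of all probe sets. The median difference was -1.05, or 2.07-fold, beside a median of 0.00 over all probe sets, and 90 of the 92 lay below 0. Sorting the RNAs by annotated kind was chosen after values had been seen, and the class medians have no test of their own. Of the 92, 75 probe sets detect a family of near-identical genes and 13 more are shared, so that a call names a tRNA family rather than a gene.

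Median tRNA deviation from the mean of the 11 strains was 0.51 in rps0a, 0.58 in rps0b, 0.68 in rps18a and 0.84 in rps18b. It was -0.59 to -0.01 in the large subunit deletions, lowest in rpl22a and highest in rpl22b, with a median of -0.47. The classes did not overlap, nor did the single arrays, at 0.30 to 1.01 in the small class and -0.64 to 0.10 in the large class.

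Several tRNA signals were dim in the large subunit deletions. SUF17, a tRNA gene, had signals of 4.52 to 11.3 with a median of 8.67 in the large class, above background on 5 of its 14 arrays. It reached 22.3 in rps0a, 29.3 in rps0b, 46.8 in rps18a and 53.9 in rps18b, above background on all 8 arrays (difference -2.10 ± 0.29, limma adjusted p 0.00582). YNCB0011C, the tRNA with the largest difference, was at 4.95 to 20.2 with a median of 15.004 in the large class, above background on 11 of 14 arrays. In the small class it was at 46.2, 68.7, 58.9 and 61.2 in the same order, above background on all 8 arrays (-2.14 ± 0.35, limma adjusted p 0.0107). Of the 49 called tRNA probe sets, 14 were above background on all 22 arrays, and 4 were above it on no array of the large class.

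snoRNAs, which guide the modification and cutting of ribosomal RNA, lay in the same direction. Of 59 probe sets, 24 were called lower in the large subunit deletions and 0 higher, with a median difference of -0.67 and 56 of 59 below 0. Of these 24, 19 were above background on every array. SNR52, a snoRNA made by RNA polymerase III, had signals of 28.9 to 66.6 with a median of 43.7 in the large class. It stood at 169 in rps0a, 327 in rps0b, 388 in rps18a and 238 in rps18b, all above the large subunit deletions (-2.60 ± 0.27, 6.07-fold, limma adjusted p 0.0014). SNR128, the U14 snoRNA needed to form the RNA of the small subunit, was at 45.8 to 94.5 with a median of 62.4 against 172, 189, 168 and 234. Neither the strains nor the single arrays of the classes overlapped at SNR128 (-1.49 ± 0.19, limma adjusted p 0.00527). SNR8, of the class that guides pseudouridine formation, differed by -1.47 ± 0.13 (limma adjusted p 0.00123). Median snoRNA deviation from the mean of the 11 strains was 0.38 to 0.51 in the small class and -0.44 to -0.05 in the large class.

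The 4 probe sets for RNAs of the spliceosome, the machine that removes introns, were all called. SNR6, the U6 RNA at its core, ranged from 13.9 to 35.8 with a median of 20.3 in the large class, above background on 13 of 14 arrays. Its signals in the small class were 98.1 in rps0a, 100.3 in rps0b, 83.6 in rps18a and 89.5 in rps18b, so that every small subunit deletion was higher (-2.02 ± 0.24, 4.07-fold, limma adjusted p 0.00343). SNR14 (U4) differed by -1.10 ± 0.19, above background on 12 of 14 large and 8 of 8 small arrays, and SNR19 (U1) by -1.34 ± 0.26, on 7 of 14 and 8 of 8. SNR7-L (the long form of U5) differed by -0.9995 ± 0.17, but was above background on only 2 of 14 and 5 of 8 arrays. No spliceosomal probe set was above background on all 22 arrays. RPR1, the RNA of RNase P, which trims tRNA precursors, differed by -1.34 ± 0.17. Both probe sets of TLC1, the telomerase RNA, were called, at -1.11 ± 0.14 and -1.005 ± 0.18. In all, 81 of 171 non-coding probe sets were lower in the large subunit deletions and 0 were higher, and 37 of the 81 were above background on all 22 arrays.

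RNAs made by polymerase III (tRNAs, SNR6, SNR52, RPR1) and by polymerase II (TLC1, SNR19, most snoRNAs) were thus both among the calls. Labelled RNA was made from cDNA primed with oligo-dT, which binds poly(A) tails, and the mature forms of most of these RNAs carry no long tail. The signals stand for what that labelling captured, and their relation to the total amount of each RNA was not tested. The same direction held without normalization (47 tRNA and 17 snoRNA calls) and with median centring (47 and 23). Without rps0a and rps0b 15 tRNA and 7 snoRNA probe sets were called, and without rps18a and rps18b 8 and 4, all lower in the large class. Leaving out rps18a, rps18b or rps0b alone left 27, 28 or 31 tRNA calls.

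**Figure D2:**
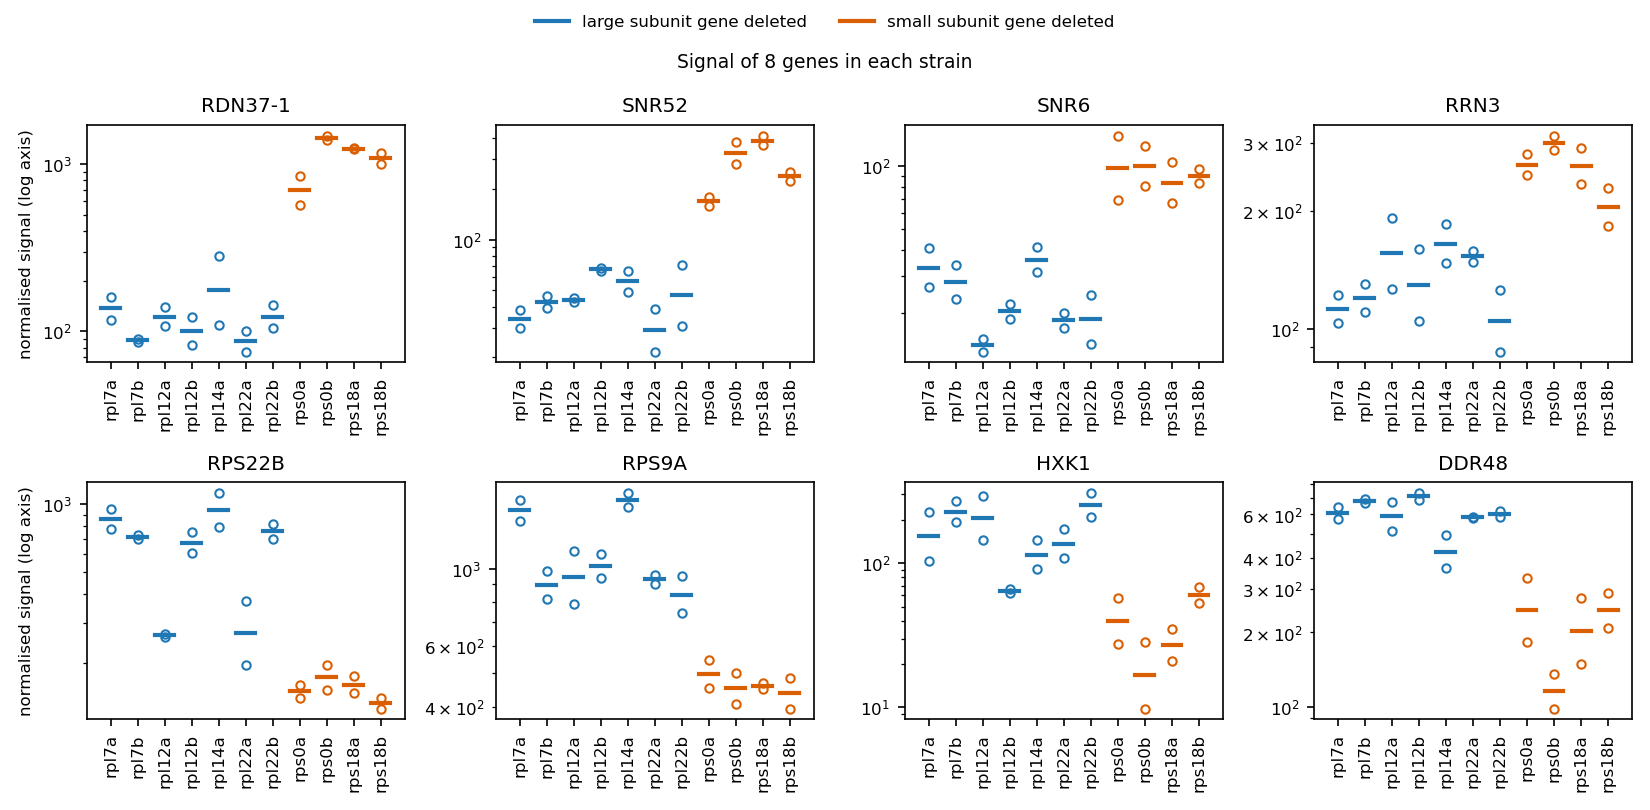
Normalised signal (log axis) of 8 genes in the 11 strains, open circles for single arrays and bars for the mean of the 2 arrays on the log scale. RDN37-1, SNR52, SNR6 and RRN3 are higher in all 4 small subunit deletions, and RPS22B, RPS9A, HXK1 and DDR48 in all 7 large subunit deletions.

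Some genes that serve ribosome production were also higher in the small subunit deletions, by smaller amounts. RRN3, which brings RNA polymerase I to the ribosomal RNA genes, had signals of 105 to 165 with a median of 130 in the large class. It was at 263 in rps0a, 299 in rps0b, 262 in rps18a and 205 in rps18b, above all 7 large subunit deletions (-0.94 ± 0.15, limma adjusted p 0.0097). RPA190, the largest subunit of that polymerase, was at 1133 to 1348 with a median of 1193 against 1719, 1739, 1903 and 1399. The strain ranges did not overlap, and the difference was -0.46 ± 0.09 (limma adjusted p 0.0189). These were the 2 calls among 41 genes of RNA polymerases I and III, against 3.12% of all genes called lower, and the list median was -0.17. Without normalization the adjusted p was 0.0803 for RRN3 and 0.456 for RPA190, and RPA190 also missed the threshold when rps0a, rps0b or rps18a was left out (0.054 to 0.0705).

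Of 64 assembly factors of the small subunit, 15 were lower in the large subunit deletions and 0 higher, with a median difference of -0.32. Taken 1 probe set a gene, 3.12% of 5649 genes were called lower and 1.63% higher, with a median of 0.01. The 15 were RCL1, TSR1, UTP20, DIP2, UTP5, HCA4, UTP18, UTP25, UTP22, UTP10, RRP5, ECM16, UTP15, UTP13 and UTP8. Most of them belong to the particle that assembles on the precursor around the future small subunit, and TSR1 acts at a late step in the cytoplasm. RCL1 had signals of 40.8 to 69.3 with a median of 58.4 in the large class and of 100.1, 81.7, 77.5 and 92.4 in rps0a, rps0b, rps18a and rps18b. TSR1 was at 262 to 405 with a median of 346 against 464, 546, 536 and 557. All small subunit deletions were above all large ones at both genes, at differences of -0.64 ± 0.14 and -0.62 ± 0.12 (limma adjusted p 0.0351 and 0.0192).

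Of 81 assembly factors of the large subunit, 12 were lower in the large subunit deletions and 0 higher, with a median of -0.27: DBP3, RPF2, ERB1, DBP7, PWP1, URB1, SQT1, RSA4, RRB1, NSA1, RIX7 and NOC3. DBP3, an RNA helicase, was at 189 to 249 with a median of 204 in the large class against 303, 372, 329 and 301 (-0.65 ± 0.09, limma adjusted p 0.00576). PWP1 was at 341 to 392 with a median of 348 against 503, 546, 512 and 478 (-0.51 ± 0.06, limma adjusted p 0.00315). At DBP3 and PWP1 the strains of the classes did not overlap. SQT1 and RRB1, chaperones that escort single large subunit proteins, differed by -0.46 ± 0.10 and -0.42 ± 0.07. The difference between the 2 sets of factors was not tested.

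The calls on assembly factors depended on how arrays were scaled. Without normalization 0 small subunit factors and 0 large subunit factors were called, and with median centring 1 and 5, all lower. The medians kept their sign, at -0.22 and -0.20 without normalization and -0.24 and -0.21 with median centring. Without rps0a replicate 2, the array with the highest background, 11 and 14 were called. Without rps0a and rps0b 0 and 1 were called, and without rps18a and rps18b 0 and 2. By strain, the median deviation of the small subunit factors was 0.08 to 0.32 in the small class and -0.34 to 0.14 in the large class, where rpl14a lay above the lowest small subunit deletion. The large subunit factors ran from 0.09 to 0.34 against -0.33 to 0.10, with rpl14a again the highest of the large class.

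Other genes of translation and RNA turnover showed few calls, all lower in the large subunit deletions, against 3.12% of all genes called lower. Of 31 initiation factors 3 were called, with a list median of -0.20: GCD1, a subunit of the factor that recharges eIF2, DED1, an RNA helicase, and FUN12, the factor that joins the subunits. GCD1 was at 408 to 632 with a median of 504 in the large class against 732, 806, 851 and 712, without overlap (-0.57 ± 0.12, limma adjusted p 0.0281). Of 23 elongation and termination factors 2 were called, RLI1 and RBG1, with a list median of -0.14. RLI1, which splits ribosomes into subunits after termination, was at 695 to 938 with a median of 792 against 1074, 1219, 1158 and 1036 (-0.51 ± 0.09, limma adjusted p 0.0131). Of 28 genes of nonsense-mediated decay and the exosome 3 were called, with a list median of -0.21: RRP6, the nuclear exosome nuclease, NAM7, the decay helicase, and SKI7, a cytoplasmic exosome cofactor. BLM10, also lower in the large class, was the 1 called gene of 40 of the proteasome, against the same 3.12%. Without normalization 0 genes of these 3 translation and decay lists were called, and their medians were -0.08, -0.03 and -0.12.

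**Figure D3:**
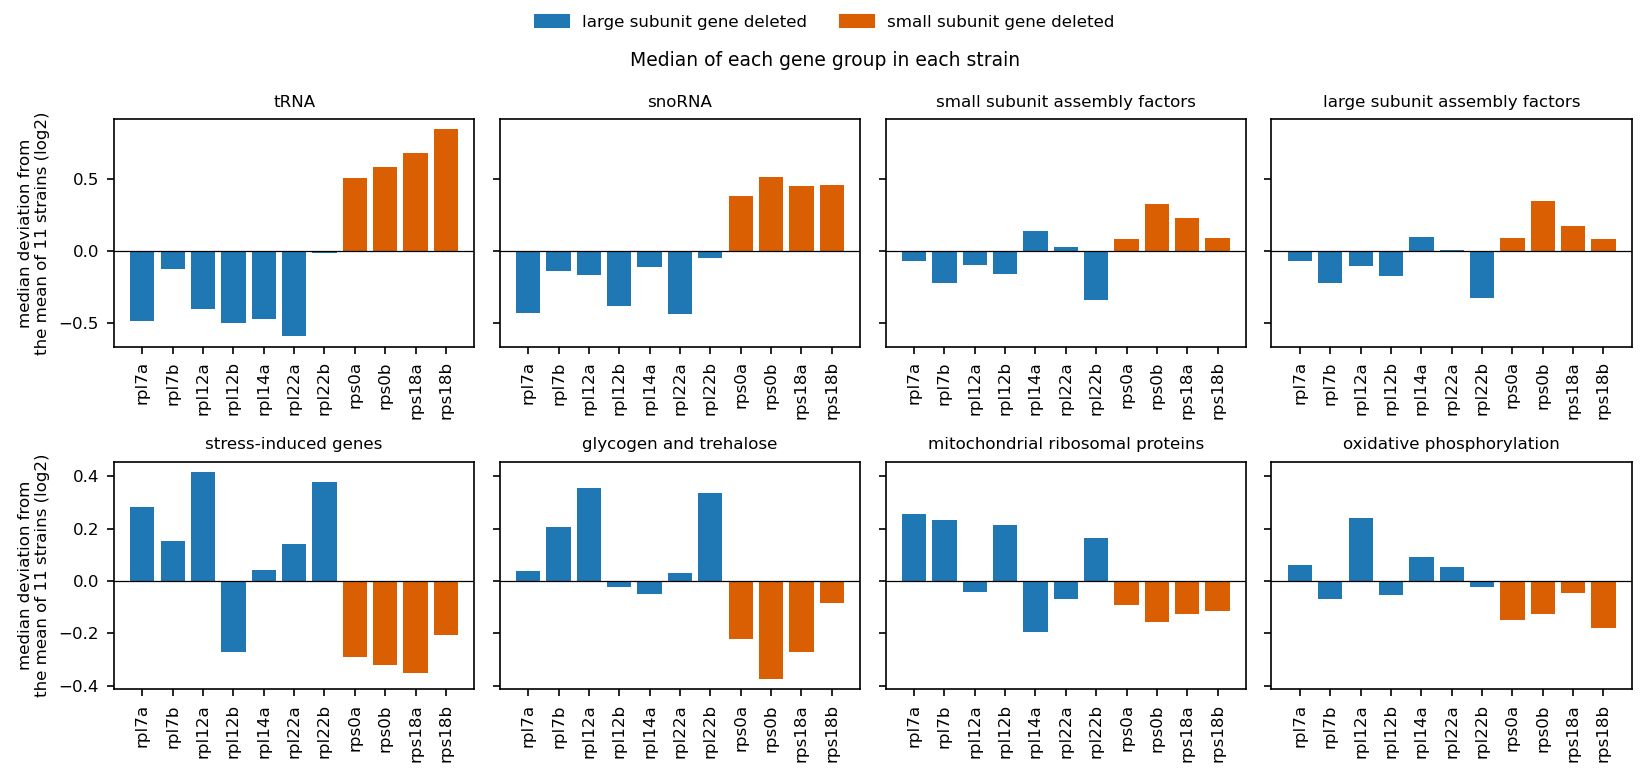
Median deviation of each gene group from the mean of the 11 strains (bars, log2), by strain, with the large subunit deletions in blue and the small subunit deletions in orange. tRNA and snoRNA medians are positive in all 4 small subunit deletions and negative in all 7 large ones, while the assembly factors, stress genes and mitochondrial ribosomal proteins vary within the large class.

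The ribosomal protein genes themselves differed little between the classes, with larger differences at RPS9A and RPS22B. A probe set of RPS25B that the list did not use was also called, lower in the large subunit deletions (-0.37 ± 0.07, limma adjusted p 0.0217). The brighter RPS25B probe set, used in the list, was at -0.23 ± 0.06 (limma adjusted p 0.0611). Of 81 large subunit protein genes 47 had a probe set of their own. Of the 42 left without the deleted genes 0 were called (limma, 10 at an unadjusted p under 0.05), with a median of -0.10. Only 4 of the 42 lay above 0, against 2915 of all 5649 genes. By strain their medians were small but did not overlap, at -0.08 to 0.02 in the large class and 0.03 to 0.09 in the small class. Of 57 small subunit protein genes 34 had a probe set of their own. Of 32 without the deleted genes 1 was called, RPS9A, with a median of -0.05 and 7 above 0. By strain these medians overlapped, at -0.07 to 0.03 in the large class and 0.003 to 0.06 in the small class. Over all genes 1.63% were called higher in the large class and 3.12% lower. Near-identical copies often share probe sets. In the large class 1 of 31 shared sets of large subunit genes was lower, against 2.35% of all probe sets. Of 19 shared sets of small subunit genes 1 was higher, against 1.15%.

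RPS9A encodes a small subunit protein linked to the accuracy of decoding, and its signal was 842 to 1577 in the large subunit deletions, with a median of 944. It was 497 in rps0a, 452 in rps0b, 460.0 in rps18a and 437 in rps18b, close together and below every large subunit deletion, with no overlap between single arrays (746 to 1653 against 395 to 545). The difference was 1.21 ± 0.18, or 2.31-fold (limma adjusted p 0.0068). A probe set that carries the names of both RPS9 copies gave 2.62 ± 0.28, with 295 to 745 against 63.1 to 70.5 (limma adjusted p 0.00152). The 2 probe sets of the copy RPS9B differed by 0.17 ± 0.14 and 0.02 ± 0.06 (limma adjusted p 0.614 and 0.914). This shared probe set and the RPS9B values were looked up after RPS9A had been seen. rpl7a, which carries a raised chromosome XVI, where RPS9A lies, was at 1471, and the highest value was in rpl14a.

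RPS22B, which encodes another small subunit protein, was at 264 to 941 with a median of 716 in the large subunit deletions. Within that class rpl12a, at 264, and rpl22a, at 271, stood apart from the other 5, which were at 676 to 941. The small subunit deletions were at 149 in rps0a, 173 in rps0b, 160.1 in rps18a and 132 in rps18b, below all 7, although 1 array of rpl22a overlapped with them (1.92 ± 0.37, 3.77-fold, limma adjusted p 0.0217). Its other 2 probe sets differed by 0.93 ± 0.23 and 0.96 ± 0.24 and missed the threshold (limma adjusted p 0.055 and 0.0573), so that the RPS22B call rests on 1 probe set of 3. Leaving out any 1 of the 4 small subunit deletions gave an adjusted p of 0.0609 to 0.0688 for RPS22B. The copy RPS22A differed by -0.06 ± 0.06 (limma adjusted p 0.695).

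Some genes that cells switch on under stress or when glucose runs short were higher in the large subunit deletions. Of 40 stress-induced genes 7 were called, all higher in the large class, against 1.63% of all genes, with a median of 0.38: HXK1, GLK1, DDR48, GPP2, XBP1, HOR7 and PNC1. HXK1, a hexokinase used when glucose is low, was at 63.9 to 255 with a median of 153 in the large class. It was at 40.0 in rps0a, 16.7 in rps0b, 27.1 in rps18a and 60.2 in rps18b, the last close to rpl12b, the lowest of the large class, and above background on 7 of 8 arrays (2.23 ± 0.42, 4.69-fold, limma adjusted p 0.0194). GLK1, glucokinase, was at 357 to 652 with a median of 406 against 159, 114, 144 and 240 (1.51 ± 0.22, limma adjusted p 0.0067). DDR48, a gene induced by DNA damage and heat, was at 425 to 711 with a median of 601 against 247, 116, 203 and 245, with no overlap between single arrays (1.61 ± 0.21, limma adjusted p 0.00527). Leaving out rps0b or rps18a gave an adjusted p of 0.0672 or 0.0709 for HXK1. A second DDR48 probe set gave 1.41 ± 0.21. GPP2, which makes glycerol, differed by 1.27 ± 0.21. It lies on chromosome V, which is raised in rpl12b, and rpl12b was its highest strain, at 114 with a median of 65.9 in the large class.

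The median of the stress list was -0.35 to -0.21 in the small class and -0.27 to 0.42 in the large class, where rpl12b, at -0.27, lay among the small subunit deletions. Of 18 genes of glycogen and trehalose storage all had differences above 0, with a median of 0.36, and 1 was called: GLC3, the glycogen branching enzyme, at 22.6 to 72.8 with a median of 49.8 against 16.7, 13.7, 16.8 and 20.2 (1.42 ± 0.30, limma adjusted p 0.0321). Leaving out any 1 small subunit deletion, or rpl7a, rpl12a, rpl22a or rpl22b, gave an adjusted p of 0.0516 to 0.107 for GLC3. GLC3 also lies on chromosome V, and its highest value, 72.8, was in rpl12b, where that chromosome is raised. The strain medians of the storage genes did not overlap (-0.05 to 0.35 against -0.38 to -0.08). Of 27 heat shock chaperones 2 were called, against 1.63% of all genes called higher. They were HSP104, which pulls proteins out of aggregates, at 0.60 ± 0.11, and its mitochondrial relative HSP78, at 0.86 ± 0.20. The list median was 0.17, and by strain the medians overlapped, at -0.18 to 0.20 in the large class and -0.22 to -0.04 in the small class. Of 30 genes of glycolysis and fermentation 2 were called, ENO1, an enolase, at 1.02 ± 0.24, and PYK2, the minor pyruvate kinase, at 0.83 ± 0.13, with a list median of 0.06. ENO1 and HSP78 lay near the threshold (limma adjusted p 0.0492 and 0.0429) and were called under 17 and 24 of 49 settings. The stress calls numbered 7 without normalization and with median centring, 0 without rps0a and rps0b and 1 without rps18a and rps18b.

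Of 74 mitochondrial ribosomal protein genes 3 were called, all higher in the large subunit deletions, against 1.63% of all genes. The list median was 0.20, with 63 of 74 above 0. By strain, the medians overlapped between the classes: they were -0.16 to -0.09 in the small class and -0.20 to 0.26 in the large class, where rpl14a, at -0.20, lay below every small subunit deletion and rpl12a and rpl22a were also below 0. MRPL31, a protein of the large mitochondrial subunit, was at 52.4 to 73.2 with a median of 59.8 in the large class. It was at 32.7 in rps0a, 30.8 in rps0b, 33.5 in rps18a and 32.8 in rps18b, all below the large subunit deletions (0.91 ± 0.09, limma adjusted p 0.00123). MRPL49 and MNP1 were the other calls, at 0.53 ± 0.12 and 0.47 ± 0.10. Without rps0a replicate 2 the count was 1 of 74.

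Of 41 genes of oxidative phosphorylation 2 were called higher in the large subunit deletions, against 1.63% of all genes, with a median of 0.22. By strain the medians overlapped, at -0.07 to 0.24 in the large class, lowest in rpl7b, and -0.18 to -0.05 in the small class. COX5B, the form of a cytochrome oxidase subunit used at low oxygen, was at 27.2 to 51.0 with a median of 45.8 against 17.5, 16.7, 21.97 and 26.2. The highest small subunit deletion, rps18b, nearly reached rpl7a, the lowest of the large class (1.06 ± 0.18, limma adjusted p 0.0129). CYC1, cytochrome c, was at 149 to 263 with a median of 192 against 116, 123, 123 and 149, where rps18b was level with rpl22a (0.64 ± 0.14, limma adjusted p 0.0343). The adjusted p of COX5B was 0.0504 without rps0b, and that of CYC1 was 0.0706 without normalization and 0.0517 to 0.107 when rpl7b, rpl12a, rpl22b, rps0a, rps0b or rps18a was left out.

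The 15 called genes with the highest differences also held genes outside these groups. Each of the 15 was taken on a probe set with 1 gene name, above background on every array of the large class. DPI8 differed by 1.44 ± 0.25, VPS73, linked to vacuolar protein sorting, by 1.23 ± 0.21, and APE1, a vacuolar aminopeptidase, by 1.18 ± 0.21. CYB2, which oxidises lactate in mitochondria, differed by 1.16 ± 0.23 and SRY1, a dehydratase of hydroxyaspartate, by 1.16 ± 0.24. GPX1, a peroxidase, differed by 1.12 ± 0.19 and YNL040W by 1.02 ± 0.19. The 15 were chosen whatever their level in the small class. There CYB2 and GPX1 were above background on only 4 of 8 arrays, VPS73 and SRY1 on 6, and HXK1 and GLC3 on 7. With the floor at the 25th percentile GPX1 was not called (limma adjusted p 0.200). The 15 lowest, chosen from calls above background on every array of the small class, whatever their level in the large class, held 11 tRNAs, 2 snoRNAs, SNR6 and RDN37-1. That filter left out lower calls such as the tRNAs YNCD0016C at -1.99 and YNCL0009C at -1.84, above background on 7 of 8 small arrays, so that the make-up of the 15 is a description of the choice. Over all 80 named probe sets, the single arrays of the classes did not overlap at 16. All 80 had been picked from the calls, and the array-level share over all probe sets was not computed, so that 16 of 80 has no background. Without a test, the strain means separated the classes at 188 probe sets higher in the large class (2.03%) and at 334 lower (3.60%).

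**Figure D4:**
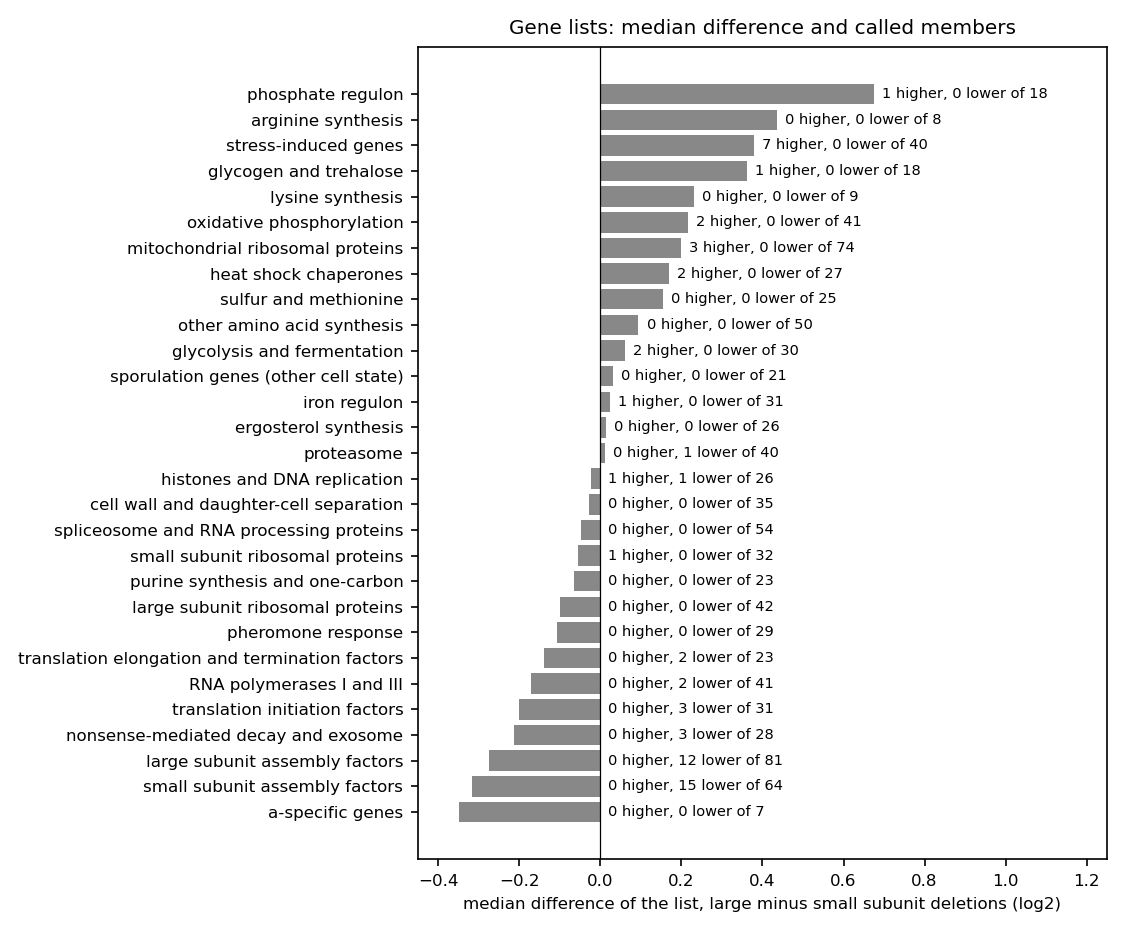
Median difference of each gene list with at least 7 counted genes (x axis, log2, large minus small subunit deletions), with the number of members called in each direction. The assembly factor lists have 15 and 12 members called lower, and the stress list 7 called higher.

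Several groups showed 0 calls in limma. Arginine synthesis had a median of 0.43 over 8 genes, with 3 at an unadjusted p under 0.05. ARG1, its highest, was at 2.01 with a limma adjusted p of 0.0804. By strain the arginine medians overlapped, at -0.35 to 1.16 in the large class and -0.59 to -0.19 in the small class. Lysine synthesis had a median of 0.23 over 9 genes (0 at an unadjusted p under 0.05), other amino acid synthesis of 0.09 over 50 (8) and sulfur metabolism of 0.16 over 25 (5). Purine synthesis was at -0.06 over 23 genes (6), ergosterol synthesis at 0.01 over 26 (5) and cell wall genes at -0.03 over 35 (13). Pheromone response was at -0.11 over 29 genes (3), the a-specific genes at -0.35 over 7 (0) and the alpha-specific genes at -0.09 over 4 (0). Without rpl7a, rpl12b and rpl14a the pheromone response median was 0.06 and the a-specific median -0.03. By strain the a-specific medians were -1.06, in rpl14a, to 0.33 in the large class and 0.07 to 0.38 in the small class. Sporulation genes were at 0.03 over 21 genes (0), spliceosome proteins at -0.05 over 54 (7) and the auxotrophic markers at -0.09 over 4 (0). The phosphate regulon had a median of 0.67 over 18 genes and 1 call, GPP2, counted above as a stress gene. By strain its medians overlapped, at -0.48 to 1.35 in the large class, highest in rpl14a and with a median of -0.17, and -0.49 to -0.14 in the small class. Over all genes 1.63% were called higher in the large class and 3.12% lower. The iron regulon had 1 call of 31, the oxidase FET5 at 0.52 ± 0.09, with a median of 0.02. Histone and replication genes had 2 of 26, RFA2 of the single-strand binding complex at 0.45 ± 0.08 and POL2, a DNA polymerase, at -0.44 ± 0.09.

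Position on chromosomes was compared because 3 large subunit strains carry a raised chromosome. The mean log2 signal of chromosome XVI in rpl7a was 0.90 above the mean of the other strains, of chromosome V in rpl12b 0.91 and of chromosome VIII in rpl14a 0.75. Between the classes 0 of 16 chromosome means passed the test (limma, 1 at an unadjusted p under 0.05, chromosome II at 0.04 ± 0.02). Of the 281 called probe sets with 1 gene name, 24 lay on these 3 chromosomes, 9 on XVI, 13 on V and 2 on VIII. The means of these chromosomes took in 433, 252 and 257 protein-coding genes, beside 5649 genes of all kinds counted in all. The 24 are probe sets and include non-coding RNAs, so that these gene counts are not a matching background for them. Whether the share of calls there differs from the share of genes was not tested. Without the 3 strains 202 probe sets were called, 81 higher and 121 lower, 139 of which were among the 325.

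In a principal component analysis of the 11 strain means, over 5725 probe sets above background on all arrays, the first component held 24.6% of the variance. The small subunit deletions lay together on it, at 12.01 to 13.3, and the large subunit deletions were spread from -20.4, in rpl7a, to 0.44, in rpl7b, without overlap. The second component, with 21.0%, ran across both classes. Over the 4649 protein-coding probe sets alone the first component held 23.5% of the variance, with 6.92 to 9.44 in the small class and -23.0 to 3.80 in the large class.

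**Figure D5:**
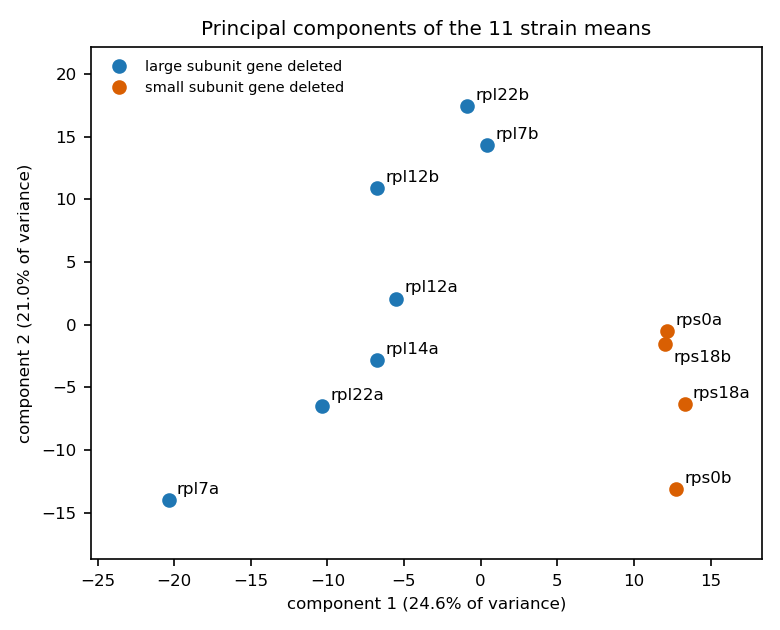
The 11 strain means on the first 2 principal components (axes in component units, with the share of variance), by class. The 4 small subunit deletions lie at 12.01 to 13.3 on the first component and the 7 large subunit deletions at -20.4 to 0.44.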

How the data were processed

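The authors deposited linear intensities, 1 for each probe set on each array. Per the labels' protocols, RNA came from hot phenol extraction, cDNA was primed with oligo-dT, and the hybridised cRNA carried biotin. The sources used here do not give how probes were summarised or whether arrays were scaled.

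Of 9335 probe sets, 60 controls were set aside. Intensities of 22 arrays were quantile normalised, raised to the 10th percentile of all values (3.75) and taken to log2. An array's background was taken at the 95th percentile of its 19 control probe sets for sequences that yeast lacks. RefSeq names were found for all 6504 probe sets with 1 gene name, 328 had several and 2443 none. Strain means were compared in limma (version 3.58.1, R 4.3.3) with 9 residual degrees of freedom and Benjamini-Hochberg adjustment. Precision rests on 11 strains. In simulated data with the strain numbers and spreads of this comparison (9275 probe sets), 40% of 1.5-fold, 76% of 2-fold, 98% of 4-fold and 100% of 8-fold changes were called. Of 173 calls, 16 were false. Each simulated strain mean was drawn independently, with no likeness between paralog deletions, no replicate effect and no signal floor. The shares called in data with such structure were not simulated.

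Lists used 1 probe set a gene, that with the highest mean, without the deleted genes. Named genes were the 15 highest and 15 lowest calls with 1 name, above background on every array of the higher class; up to 4 calls of each list by size; all called assembly factors and ribosomal protein genes; and the deleted genes. Members, lists and tests were chosen with earlier results of these data known. Alternatives were other scalings and floors, log2(value + 1), limma's trend and robust options, leaving out dim probe sets, array-level fits with strain or replicate blocks, paralog family means, and leaving out strains, arrays or chromosomes.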

Additional observations from a re-analysis of the deposited data

Results flagged for a closer look

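Of 160 tests for a strain far from the rest of its class (Dixon's test over the 7 or 4 strain signals of each named probe set), 6 were positive, and chance gives about 1 in 20. DDR48 was at 425 in rpl14a, with the other large subunit deletions at 586 to 711. RBG1 was at 915 in rpl22a, with the others at 730.0 to 796. UTP10 was at 420.0 in rps18b, with the other small subunit deletions at 516 to 533, and HCA4 at 91.4 in rps0a, with the others at 115 to 119. SUF17 was at 4.52 in rpl7a, with the other large subunit deletions at 8.06 to 11.3, and YNCB0011C at 4.95 in rpl12a, with the others at 10.99 to 20.2.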

How the results depend on the processing

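The count of 325 called probe sets (107 higher and 218 lower in the large subunit deletions) was 158 without normalization (68 and 90), 202 without rpl7a, rpl12b and rpl14a, 982 when the spread between arrays of a strain was used in place of that between strains (497 and 485), and 0 with paralog family means. Leaving out 1 strain gave 125 (rps18a) to 332 (rpl7a), and 132, 184, 191 and 213 without rps0b, rps18b, rps0a and rpl12a; leaving out 1 array gave 250 to 360. Runs chosen after seeing the data gave 167 for protein-coding genes alone (83 and 84), 43 without rps0a and rps0b and 38 without rps18a and rps18b. The other settings, median centring (243), both floors, log2(value + 1), dim probe sets left out, limma's trend and robust options, and 3 chromosomes left out, stayed within 1.5 times of 325. A fit on the 22 arrays with the strain as a random block called 484 (201 and 283), and adding the replicate number as a block made it 529 (212 and 317). Same-numbered arrays of different strains deviated together at a correlation over 0.1 in 48 of 55 pairs of strains, and 22 of 22 arrays had their highest correlation with their own number, a hint from the data and not from the design.

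The 522 probe sets that separate the classes became 280 without normalization (142 higher, 138 lower). The 59 list calls (20 higher, 39 lower) became 19 without normalization (19 and 0), 33 with median centring (26 and 7), 38 without rpl7a, rpl12b and rpl14a (20 and 18), and 15 (rps0b) to 62 (rpl7a) with 1 strain left out. The 49 tRNA calls became 15 and 8 without the rps0 and the rps18 pair, 27 to 50 with 1 strain left out and 36 to 52 with 1 array left out. The 24 snoRNA calls became 7 and 4, 16 to 26 and 21 to 26. The causes were not tested. Of 80 named probe sets, 37 stayed called without normalization, 47 with median centring and 0 with family means, and 0 reversed under any setting run; 11 of 406 list medians moved by more than 1 standard deviation. Signal near background limits the non-coding RNAs: 22 of 92 tRNA, 35 of 59 snoRNA, 0 of 4 snRNA and 1 of 6 rRNA probe sets were above it on all arrays.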
